A study of Mus musculus with 8 samples.

Results

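The genes described here encode the transcription factor NRF2 (Nfe2l2) and 9 enzymes and transporters under its control: Slc7a11, Gclc, Gclm and Gsr of the glutathione system, Txnrd1, Txn1, Prdx1 and Srxn1 of the thioredoxin system, and the quinone reductase Nqo1. They were chosen by symbol, with earlier results of these data known. Each was found once among the 55880 rows of the expression table, and all 10 were among the 14074 genes with enough counts to be tested. Expression was measured by RNA sequencing of polyadenylated RNA from BMDCs, dendritic cells grown in culture from mouse bone marrow, which take up and present antigen. In the LMF group (4 libraries) the cells had taken up ITRs over 24 h and were then placed in a low-frequency magnetic field. The labels do not spell out ITR, and the series title names an intracellular magnetic torque-regulator. The Control group (4 libraries) was left untreated. Cells of both groups came from wild-type male C57BL/6 mice at 6 weeks of age, were cultured for 6 days with interleukin-4 at 10 ng/mL and GM-CSF at 20 ng/mL, and were collected 6 h after treatment. ITRs and field were given together, so that their effects cannot be told apart, and the micromotor group named in the series' design was not analysed here. Whether libraries were made from different animals or cultures is not in the labels, so p-values here speak of the spread among these 8 libraries, which may be technical.

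NRF2 is a basic leucine zipper transcription factor that is normally bound by KEAP1, joined to ubiquitin by the CUL3 ligase and degraded. Oxidants and electrophiles modify cysteines of KEAP1, after which NRF2 accumulates, pairs with a small MAF protein and binds antioxidant response elements of its target genes. The targets import cystine, make and recycle glutathione, and keep thioredoxin and the peroxiredoxins reduced, and in dendritic cells and macrophages NRF2 is known to restrain inflammatory gene expression. Only mRNA was measured here, not NRF2 protein or glutathione.

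Library depth was 16592672 to 18532878 counts in LMF and 17309368 to 21585750 counts in Control. Mitochondrially encoded genes took 2.63% to 2.91% of counts in LMF and 2.59% to 2.91% in Control. Ribosomal protein genes took 2.47% to 2.86% in LMF and 2.94% to 3.04% in Control, with no overlap, and the part of this in the changes below was not tested. LMF replicate 4 stood apart on the second principal component (10.7% of the variance), with a score of 27.2 where the remaining LMF scores ran from -14.0 to -6.79. Of 9 tested dendritic cell markers 6 rose and 1 fell, and their summed level over the list of 10 was 8507 to 9886 CPM (counts scaled to a common library size) in LMF and 8493 to 8967 CPM in Control. The most abundant of them was Cd74, the class II invariant chain, at 3086 ± 226 CPM in LMF and 3335 ± 79.9 CPM in Control (SD, n = 4 each). Its log2 fold change, -0.11 ± 0.04 (SE, adjusted p = 0.0284 by edgeR), was a call that was lost without LMF replicate 3 or 4, without Control replicate 3 or 4, and on FPKM. Cd209a, a further dendritic cell marker on the list, was near 0 and not tested. Of 10 macrophage markers 7 fell and 3 did not pass, with a summed level of 4592 to 4793 CPM in LMF and 6495 to 7228 CPM in Control. Apoe, a lipid carrier and the most abundant of them over the 8 libraries, fell to 1302 ± 83.0 CPM in LMF, against 3162 ± 206 CPM in Control (-1.28 ± 0.05, adjusted p = 3.51e-15, edgeR). Of 10 neutrophil markers 4 rose and 1 fell, with sums of 1761 to 1992 CPM in LMF and 1618 to 1688 CPM in Control. The T and NK cell list summed to 8.62 to 10.8 CPM in LMF and 9.26 to 10.3 CPM in Control, the B cell list (1 of 6 lower) to 44.1 to 51.8 CPM in LMF and 53.0 to 58.1 CPM in Control, and the erythroid list to 1.27 to 2.10 CPM in LMF and 1.15 to 1.75 CPM in Control. Ighm, the most abundant B cell marker, was the 1 called lower (-0.34 ± 0.06 SE, adjusted p = 6.25e-05, edgeR). Hba-a1, the most abundant erythroid marker, was not called. Over all tested genes, 17.5% were called higher and 16.9% lower. No marker of any list was at 0 in all 8 libraries. The part of the macrophage and neutrophil markers in the changes below was not tested, and in bulk RNA a shift in cell types cannot be told apart from a shift in RNA per cell.

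All 10 genes rose in LMF. The increase was largest for Slc7a11, Srxn1 and Txnrd1, each at least 2-fold, moderate for Nqo1, Gclm, Prdx1, Gclc and Nfe2l2, and small for Gsr and Txn1. By edgeR's quasi-likelihood test, adjusted over all tested genes, 10 of 10 were called higher at an adjusted p of 0.05, where 17.5% of all tested genes were called higher. None of the 10 was called lower, where 16.9% of all tested genes were. Among the 4976 tested genes with a mean level at least that of the lowest of the 10 genes (Nqo1), 27.8% were called higher. The median log2 fold change of the 10 genes was 0.76, and that of all tested genes was -2.21e-04. For each of the 10 genes the 4 LMF libraries lay above the 4 Control libraries, as did 16.1% of all tested genes. Because the 10 genes were chosen with earlier results of these data known, these shares give scale and do not test the set. The 10 genes together took 0.562% to 0.623% of scaled counts in LMF and 0.339% to 0.352% in Control. Prdx1 alone made up 39.3% of the gain, beside 42.4% to 42.9% of the summed level of the 10 genes in Control.

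**Figure D1:**
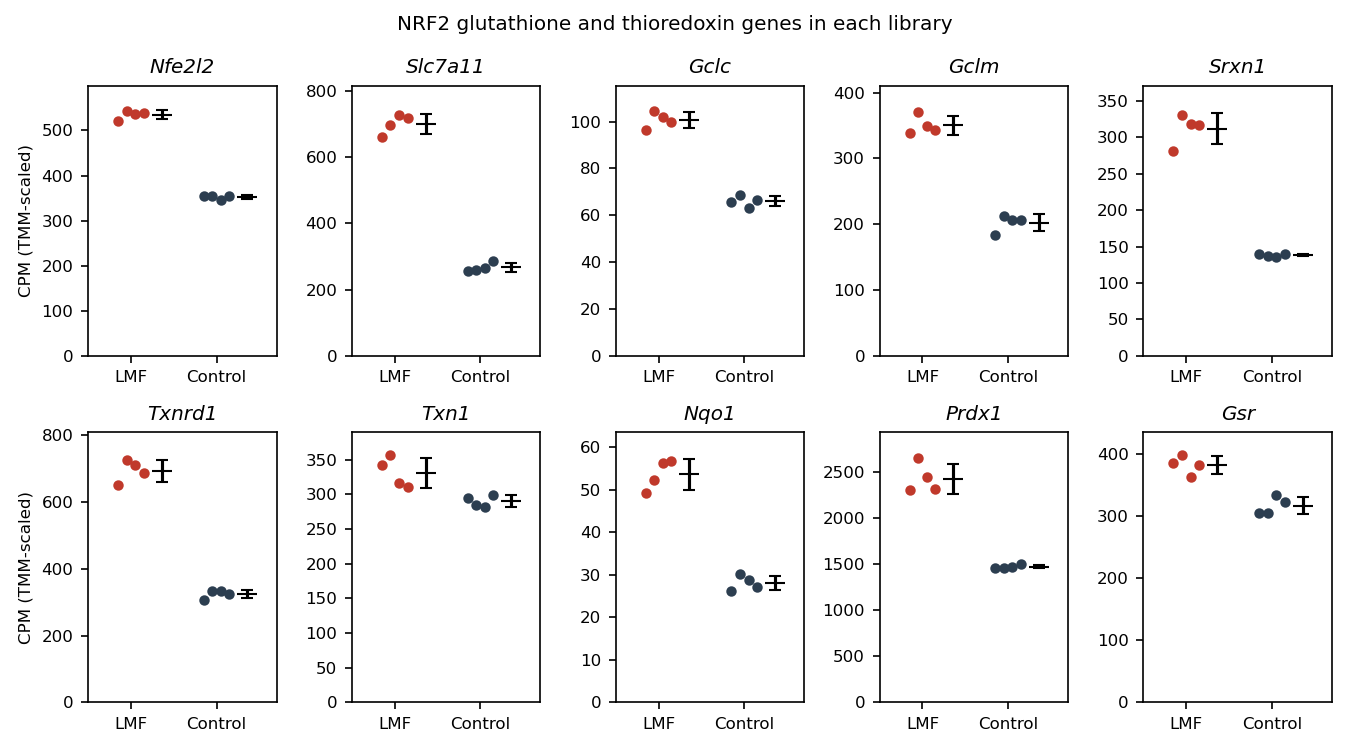
Level of each gene in every library, in CPM after TMM scaling, with LMF libraries in red, Control libraries in dark blue, and the mean ± SD of each group beside them in black (n = 4 each). The LMF libraries lie above the Control libraries in every panel, with the narrowest gaps for Txn1 and Gsr.

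Nfe2l2 encodes NRF2 itself. It was measured at 521, 543, 537 and 538 CPM in LMF replicates 1 to 4, against 354, 355, 345 and 354 CPM in Control replicates 1 to 4. The groups were far apart relative to their spread, 535 ± 9.59 CPM in LMF and 352 ± 4.57 CPM in Control (SD, n = 4 each). Its increase was 0.60 ± 0.04 on the log2 scale (SE, adjusted p = 3.5e-16, edgeR), and 5.49% of tested genes had a larger one. In Control replicate 3 Nfe2l2 lay below the other 3 Control libraries by more than Dixon's limit.

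Slc7a11, the cystine-importing chain of the cystine/glutamate exchanger, rose most. It stood at 659.8, 697, 727 and 718 CPM in LMF, against 256, 259.7, 266 and 286 CPM in Control. The lowest LMF library was above the highest Control library by 1.20 on the log2 scale. Its increase was 1.39 ± 0.04 on the log2 scale (SE, adjusted p = 6.57e-25, edgeR), a 2.62-fold higher level, and 0.853% of tested genes had a larger one.

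Gclc and Gclm are the catalytic and the modifier subunit of glutamate-cysteine ligase, which catalyses the first and rate-limiting step of glutathione synthesis. Gclc had 96.5, 105, 102 and 99.7 CPM in LMF, against 65.8, 68.7, 63.3 and 66.6 CPM in Control (log2 fold change 0.61 ± 0.05 SE, adjusted p = 1.14e-12, edgeR). Gclm had 339, 370.2, 349 and 343 CPM in LMF, against 184, 213, 207 and 207 CPM in Control (0.79 ± 0.04, adjusted p = 9.76e-17, edgeR). Both subunits rose with no overlap between groups, and Control replicate 1 was the lowest Control library for Gclm. Gsr, glutathione reductase, which returns oxidised glutathione to its reduced form with NADPH, had 386, 398, 363 and 382 CPM in LMF, against 305, 306, 334 and 322 CPM in Control. Its rise was small, 0.27 ± 0.04 (adjusted p = 7.61e-07, edgeR), and the gap between the groups was 0.12 on the log2 scale.

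Txnrd1, the cytosolic selenoprotein that reduces thioredoxin with NADPH, had 652, 727, 713 and 688 CPM in LMF, against 307, 333, 334 and 324 CPM in Control. It rose by 1.10 ± 0.04 (SE, adjusted p = 3.51e-22, edgeR), which is 2.14-fold. Txn1, thioredoxin itself, had 341, 356, 316 and 311 CPM in LMF, against 295, 284, 282 and 299 CPM in Control. It had the smallest increase of the 10 genes, 0.19 ± 0.04 (adjusted p = 3.62e-04, edgeR), and a gap between groups of 0.05 on the log2 scale. Of all tested genes 23.7% had a larger log2 fold change than Txn1.

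Prdx1, a peroxiredoxin that reduces peroxides and draws its electrons from thioredoxin, was the most abundant of the 10 genes. It had 2297, 2648, 2442 and 2313 CPM in LMF, against 1452, 1462, 1472 and 1496 CPM in Control (0.72 ± 0.04 SE, adjusted p = 5.58e-17, edgeR). The LMF libraries were spread more widely, with an SD of 162 CPM against 18.9 CPM in Control. Srxn1, sulfiredoxin, which repairs overoxidised peroxiredoxins, had 281, 331, 318 and 317 CPM in LMF, against 139.6, 137, 136 and 140.1 CPM in Control. It rose by 1.17 ± 0.04 (adjusted p = 7.2e-22, edgeR), or 2.25-fold, and LMF replicate 1 was the lowest LMF library. Nqo1, which reduces quinones by 2 electrons in 1 step, had 49.3, 52.2, 56.3 and 56.8 CPM in LMF, against 26.3, 30.2, 28.7 and 27.2 CPM in Control (0.93 ± 0.07, adjusted p = 4.45e-14, edgeR). It was the least counted of the 10 genes, with 468 to 1044 reads per library.

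Against a fold change of 1.5 in place of none, edgeR called 6 of the 10 genes higher, where 1.71% of all tested genes, and 1.93% of those at least as abundant as Nqo1, passed that test upwards. The 6 were Slc7a11, Srxn1, Txnrd1, Nqo1, Gclm and Prdx1, with adjusted p from 7.37e-19 for Slc7a11 to 0.00497 for Prdx1. Gclc and Nfe2l2, both at 1.52-fold, and Gsr and Txn1 did not pass it. Here too the shares give scale only, since the genes were chosen with earlier results of these data known.

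**Figure D2:**
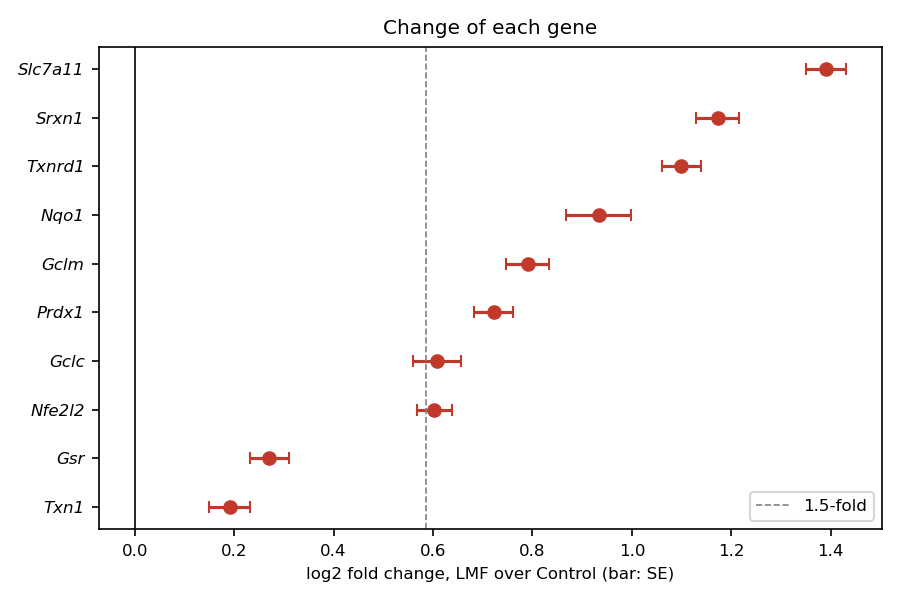
Log2 fold change of LMF over Control for each gene, with bars for 1 SE and a dashed line at 1.5-fold. Slc7a11 is highest at 1.39 and Txn1 lowest at 0.19, and the points of Gclc and Nfe2l2 lie close to the line.

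Within the LMF group, LMF replicate 1 was the lowest LMF library for 8 of the 10 genes and LMF replicate 2 the highest for 8. The median deviation from the LMF mean was -0.07 (log2) in LMF replicate 1 and 0.06 in LMF replicate 2, small beside the median change of 0.76. LMF replicate 4, which stood apart on the second principal component, deviated by a median of -0.01. All 10 genes were called higher in each of the 8 fits that left out 1 library.

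Levels of different genes were compared per length, on the authors' FPKM (fragments scaled by gene length and library size). In LMF the order was Prdx1 at 794 ± 47.6 FPKM, Txn1 at 314 ± 18.8, Nfe2l2 at 140.4 ± 2.08, Gsr at 138 ± 4.53, Srxn1 at 110.1 ± 7.01, Txnrd1 at 97.7 ± 4.19, Gclm at 55.4 ± 1.82, Slc7a11 at 50.1 ± 2.18, Nqo1 at 34.4 ± 2.37 and Gclc at 26.6 ± 0.759 FPKM (SD, n = 4). Nfe2l2 and Gsr overlapped in LMF, as did Srxn1 and Txnrd1, and the other neighbours did not. In Control the order ran Prdx1 at 484 ± 3.45 FPKM, Txn1 at 276 ± 7.94, Gsr at 115 ± 4.76, Nfe2l2 at 92.9 ± 1.39, Srxn1 at 49.1 ± 0.72, Txnrd1 at 45.8 ± 1.61, Gclm at 32.2 ± 1.88, Slc7a11 at 19.2 ± 0.849, Nqo1 at 18.1 ± 1.06 and Gclc at 17.6 ± 0.58 FPKM. Slc7a11, Nqo1 and Gclc overlapped with their neighbours in Control. On FPKM, Gsr and Nfe2l2 changed places between the groups. The gene lengths behind the authors' FPKM often differ from the lengths listed in the table, and with the listed lengths Slc7a11 ranked 6th in LMF, above Txnrd1 and Gclm. With the listed lengths Nfe2l2 was above Gsr by mean in both groups, at 135.8 against 101.8 in LMF and 89.9 against 84.8 in Control. The change of places between Gsr and Nfe2l2 thus depends on the lengths used.

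Partner genes were then compared by their ratio within each library, which asks whether they changed by different amounts. With 4 libraries a group the two-sided exact permutation test over the 70 splits cannot give a p below 0.0286, and p-values were adjusted over the 6 pairs. The 6 differences all reached this limit, with an adjusted p of 0.0286 each by the exact permutation test. The ratio of Txnrd1 to Txn1, the reductase to its substrate, was 0.283, 0.302, 0.335 and 0.329 in LMF, against 0.154, 0.174, 0.176 and 0.161 in Control (FPKM ratios). Its log2 value was 0.91 ± 0.07 higher in LMF (SE of the difference). The ratio of Slc7a11 to Slc3a2, the light to the heavy chain of the cystine exchanger, was 0.406, 0.42, 0.462 and 0.453 in LMF, against 0.242, 0.248, 0.252 and 0.275 in Control, and 0.78 ± 0.06 higher on the log2 scale. Slc3a2, which also serves other amino acid transporters, rose by less than Slc7a11, by 0.62 ± 0.04 (adjusted p = 3.97e-16, edgeR). Nfe2l2 rose relative to its inhibitor Keap1, by 0.61 ± 0.10, and Srxn1 relative to its substrate Prdx1, by 0.45 ± 0.04. The 2 subunits of glutamate-cysteine ligase differed least: the ratio of Gclm to Gclc was 2.10, 2.12, 2.05 and 2.06 in LMF, against 1.67, 1.85, 1.96 and 1.86 in Control, a log2 difference of 0.18 ± 0.05. Gsr fell relative to Gclc, by 0.34 ± 0.06 on the log2 scale. In each of the 6 pairs the groups did not overlap, which reaching the limit already implies. The share over gene pairs in general was not computed. Among single tested genes, 16.1% had all LMF libraries above all Control libraries, and 15.7% had them all below.

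**Figure D3:**
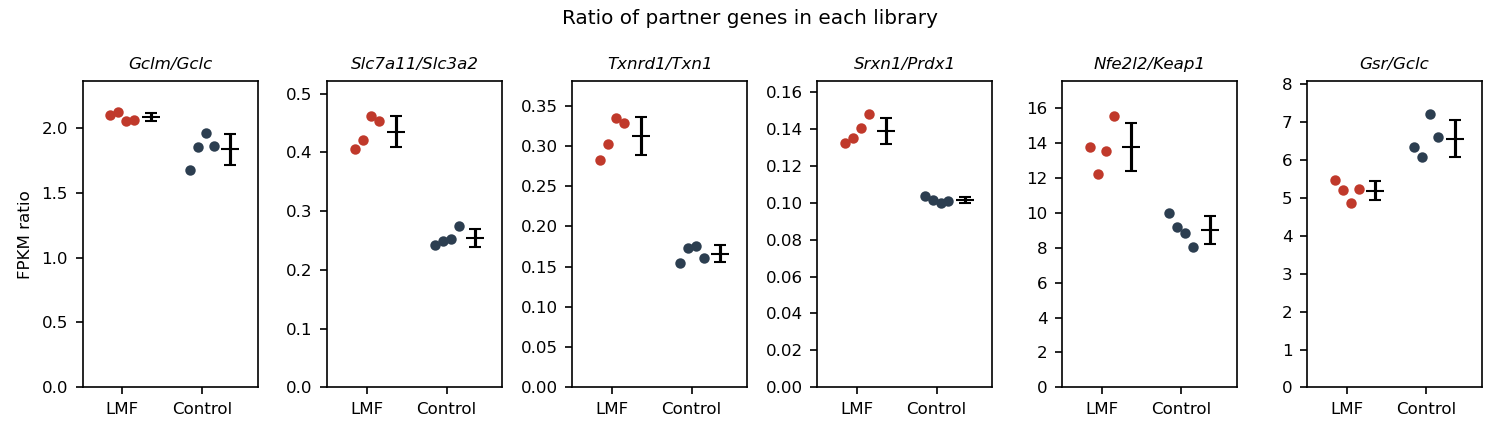
Ratio of the FPKM values of partner genes in each library, LMF in red and Control in dark blue, with the mean ± SD of each group in black (n = 4 each). In the first 5 panels the LMF libraries lie higher, and in the last, Gsr over Gclc, they lie lower.

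The promoters of the 10 genes were searched for the core of the antioxidant response element, TGACNNNGC. The search covered both strands of the 300 bases from 250 before to 50 after each RefSeq gene start (build GRCm38.p6). Because the genes were chosen as NRF2 and its known targets, matches speak of that choice and not of the changes measured here. Of the 10 genes 8 have an entry in that set (10 windows, since Txnrd1 has 3 starts), and Gclc and Gsr have none. The core was in 5 of the 10 windows, those of Nfe2l2, Gclm, Srxn1, Prdx1 and 1 of Txnrd1, and in 12.4% of all 32851 windows. It was not in the windows of Slc7a11, Txn1 and Nqo1, which says only that these letters are absent there. The motif TGANTCA of the AP-1 factors, searched in the same way, was in the windows of Srxn1 and Prdx1 and in 7.81% of all windows, and in Prdx1 it overlapped the core. The stretches below show the 5 matches with their flanks, 5′ to 3′ on the strand of the gene, with the core in capitals (read on the opposite strand except in Nfe2l2).
Nfe2l2, chr2:75704884-75704913, minus strand: tcagcccaccTGACTCCGCcatgccccgga
Gclm, chr3:122245413-122245442, plus strand: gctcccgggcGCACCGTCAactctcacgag
Srxn1, chr2:152105542-152105571, plus strand: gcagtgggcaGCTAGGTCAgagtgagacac
Txnrd1, second start, chr10:82859104-82859133, plus strand: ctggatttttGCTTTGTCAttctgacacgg
Prdx1, chr4:116685456-116685485, plus strand: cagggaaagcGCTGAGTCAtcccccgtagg
The match lay 240 bases before the start in Nfe2l2, 134 in Gclm, 133 in Prdx1 and 92 in Txnrd1, and 29 bases after it in Srxn1. For longer context, the 250 bases before the start of Gclm and Prdx1, whose matches lie at about the same distance, are set beside those of Slc7a11, which rose most and holds no match.
Gclm, chr3:122245307-122245556, plus strand: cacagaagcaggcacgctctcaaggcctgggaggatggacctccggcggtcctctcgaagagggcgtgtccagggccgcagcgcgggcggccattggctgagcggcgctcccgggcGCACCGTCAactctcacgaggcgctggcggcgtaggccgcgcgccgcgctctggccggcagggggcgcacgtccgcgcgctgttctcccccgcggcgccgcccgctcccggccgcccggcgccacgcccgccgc
Prdx1, chr4:116685349-116685598, plus strand: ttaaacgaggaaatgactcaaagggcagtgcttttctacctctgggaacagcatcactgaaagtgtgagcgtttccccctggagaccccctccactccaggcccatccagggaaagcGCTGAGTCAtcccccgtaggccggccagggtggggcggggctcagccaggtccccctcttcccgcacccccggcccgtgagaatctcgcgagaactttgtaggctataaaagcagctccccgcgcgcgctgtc
Slc7a11, chr3:50443614-50443863, minus strand: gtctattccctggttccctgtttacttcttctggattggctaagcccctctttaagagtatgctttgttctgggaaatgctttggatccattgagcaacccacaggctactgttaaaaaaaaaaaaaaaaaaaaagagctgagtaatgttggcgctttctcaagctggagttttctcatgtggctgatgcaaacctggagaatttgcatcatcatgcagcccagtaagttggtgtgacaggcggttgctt

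The expression table has coordinates of its own, which match the mm10 annotation for 1 of the 10 genes and are given as listed. Slc7a11 (ENSMUSG00000027737) spans 49846975 to 50398063 on chromosome 3, Txnrd1 (ENSMUSG00000020250) 82669785 to 82733546 on chromosome 10, and Nfe2l2 (ENSMUSG00000015839) 75505857 to 75534985 on chromosome 2. Other counted genes overlap Nfe2l2, Slc7a11, Gclm, Txnrd1 and Gsr, each with at most 0.374% of the counts of the gene it overlaps.

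Of 13 genes that control NRF2, or are related to it, 6 rose, 1 fell and 6 did not pass. Their median log2 fold change was 0.12. For comparison with this list and those below, 17.5% of all tested genes were called higher and 16.9% lower. These lists too were chosen with earlier results of these data known. Maff, a small MAF partner, rose to 14.98 ± 1.81 CPM in LMF, against 7.86 ± 0.952 CPM in Control (0.93 ± 0.12 SE, adjusted p = 4.96e-08, edgeR), and the other small MAF genes Mafk and Mafg rose by 0.50 ± 0.07 and 0.22 ± 0.04. Sirt7 overlaps Mafg on the same strand with 65.5% as many counts, so that the small change of Mafg is uncertain. Sqstm1, the autophagy receptor p62 that binds KEAP1 and is itself an NRF2 target, rose to 1357 ± 40.0 CPM in LMF, against 780.2 ± 14.2 CPM in Control (0.80 ± 0.03). Cul3, the ligase scaffold, rose by 0.28 ± 0.05. Keap1 had 48.4 ± 5.04 CPM in LMF and 48.5 ± 4.30 CPM in Control, with a log2 difference of -6.84e-04 ± 0.07 that did not pass (adjusted p = 0.995, edgeR). A non-coding gene on the opposite strand of Keap1 holds 2.15% as many counts. The 1 that fell was Nfe2, a relative of NRF2 in blood cells (-0.37 ± 0.05).

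Among 16 tested genes of glutathione turnover 5 rose, 4 fell and 7 did not pass, with a median of 0.02. Gss, glutathione synthetase, which completes glutathione after the ligase, rose by 0.74 ± 0.08 (Acss2 overlaps it on the opposite strand with 77.4% as many counts), and Abcc1, an exporter of glutathione and its conjugates, by 0.84 ± 0.04. Gpx3, a secreted glutathione peroxidase, fell to 83.0 ± 4.42 CPM in LMF, against 172 ± 10.7 CPM in Control (-1.05 ± 0.05, adjusted p = 4.8e-19, edgeR), and the cytosolic peroxidase Gpx1 fell slightly (-0.13 ± 0.04). Chac1, which degrades glutathione, was called higher from a low level (1.22 ± 0.242 CPM in LMF and 0.612 ± 0.28 CPM in Control, log2 fold change 0.995 ± 0.38), and Oplah, 5-oxoprolinase, was called lower (-0.52 ± 0.18). Both calls were lost in several fits without 1 library, and Oplah overlaps Exosc4 and Smpd5 on the opposite strand. Of 15 tested glutathione transferases 3 rose (20.0%, where 17.5% of all tested genes did) and 4 fell (26.7%, against 16.9%). Their median was -0.15. Gsta3 rose by 1.25 ± 0.14, Gstm2 by 0.44 ± 0.08 and Gstm1 by 0.25 ± 0.04, while Mgst2 fell (-0.50 ± 0.06, with a same-strand gene of 7.84% as many counts) and Gstt2 was called lower (-0.34 ± 0.12), a call lost without Control replicate 2 or 4. The Gsta and Gstm genes are families of close copies between which reads may be split.

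Of 19 other genes of the thioredoxin and peroxiredoxin systems 4 rose, 6 fell and 9 did not pass, with a median of -0.04. The risers were 21.1% of the list, where 17.5% of all tested genes rose, and the fallers 31.6%, against 16.9%. Prdx6, a peroxiredoxin that acts with glutathione, rose by 0.53 ± 0.04 and Prdx5 by 0.24 ± 0.05. Trmt112 overlaps Prdx5 on the opposite strand with 4.12% as many counts. Msrb3, a methionine sulfoxide reductase, was called higher (0.64 ± 0.23, adjusted p = 0.0279, edgeR), with overlapping groups and an opposite-strand gene of 21.4% as many counts, and lost the call without LMF replicate 1 or 4 or Control replicate 2 or 3. Sesn1, a sestrin, fell to 35.7 ± 2.04 CPM in LMF, against 68.2 ± 2.92 CPM in Control (-0.94 ± 0.06), and Msrb2 fell (-0.77 ± 0.14). Of 11 tested NADPH-supplying genes 4 rose, 2 fell and 5 did not pass, with a median of -0.02. Malic enzyme Me1 rose to 9.02 ± 1.19 CPM in LMF, against 3.30 ± 0.479 CPM in Control (1.45 ± 0.15, adjusted p = 1.67e-09, edgeR), and the cytosolic NAD kinase Nadk by 0.56 ± 0.04. Isocitrate dehydrogenase Idh1 fell to 563 ± 9.37 CPM in LMF, against 852 ± 30.1 CPM in Control (-0.60 ± 0.04), and the mitochondrial NAD kinase Nadk2 fell (-0.28 ± 0.08).

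Of 22 other known NRF2 targets 10 rose, 6 fell and 6 did not pass, with a median of 0.10. Hmox1, heme oxygenase 1, rose by 1.52 ± 0.04 and the aldo-keto reductase Akr1b8 by 0.76 ± 0.15. Trim16, a ubiquitin ligase, fell (-0.69 ± 0.09), where Fbxw10 overlaps on the same strand with 6.34% as many counts. Nqo2 also fell (-0.61 ± 0.08), where Serpinb6a with 462% as many counts overlaps on the opposite strand, so that its value is uncertain if counting ignored strand. Of 14 tested genes of the ATF4 and amino acid response, a programme that also controls Slc7a11, 9 rose and 5 did not pass, with a median of 0.37. Phgdh, the first enzyme of serine synthesis, rose to 26.7 ± 3.45 CPM in LMF, against 11.5 ± 1.37 CPM in Control (1.21 ± 0.10), asparagine synthetase Asns by 1.19 ± 0.12 and Atf4 by 0.46 ± 0.04. Adjusted p-values by edgeR were below 0.05 for each gene said to have risen or fallen.

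**Figure D4:**
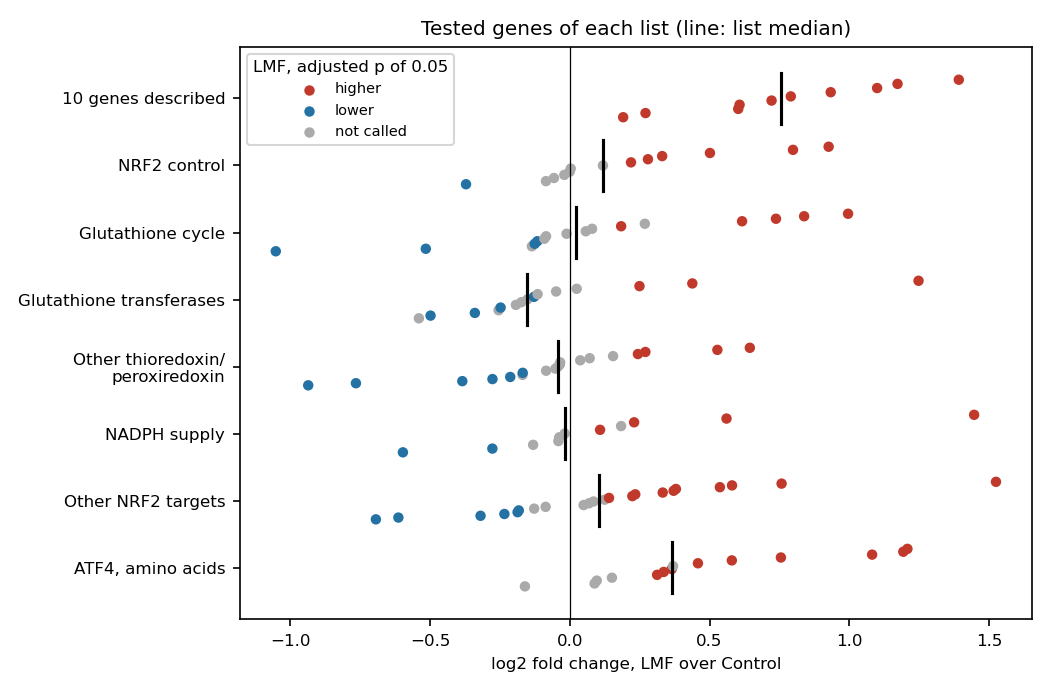
Log2 fold change of LMF over Control for the 10 genes and for the tested genes of 7 related lists, with 1 point per gene coloured by its edgeR call and a black line at the list median. The median is 0.76 for the 10 genes, 0.37 for the ATF4 list and between -0.15 and 0.12 for the other 6 lists.

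Genes were ranked by their profile over the 8 libraries, each taken as log2 CPM relative to the Control mean. Nfe2l2, Slc7a11 and the rest of the set described here were left out of the ranked genes. How close the genes of the set lie to each other is therefore not covered. The 3 genes closest to Nfe2l2 among 9987 ranked genes were Slc3a2, Adam17 and Cmpk2. Their root mean square differences were 0.033, 0.033 and 0.036 (log2). Adam17 is a shedding protease that Iah1 overlaps on the opposite strand with 14.6% as many counts, and Cmpk2 is a mitochondrial nucleotide kinase. Closest to Slc7a11 were Fpr1, a formyl peptide receptor (0.058), Mcoln2, an endolysosomal cation channel (0.060), and Tlr2, the lipoprotein receptor (0.069). Fpr1 had 257 CPM in LMF and 102 CPM in Control, Mcoln2 103 and 39.8 CPM in the same order, and Tlr2 509.9 and 189.6 CPM. The 8 points of each profile fall into the 2 groups, LMF and Control.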

How the data were processed

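Trimmomatic, HISAT2 (2.0.5), HTSeq, DESeq2 and build mm10 are named, without their roles, in the submitters' processing notes. The table deposited by the authors gives each gene's raw counts in every library, and FPKM; strand handling is not given in the sources used here. The authors' FPKM divides by the summed counts of the library and by a length that matches the one listed for 22.0% of 16070 genes counted in all libraries. Groups were taken from the sample titles, because all 8 libraries carry the same treatment entry. No 2 libraries looked like copies: chi-square per degree of freedom was 3.50 to 7.80 within groups and 26.6 to 35.2 between them.

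The counts were tested with edgeR 4.0.16 (filterByExpr, TMM, robust quasi-likelihood F test, no covariate) under R 4.3.3, and p-values were Benjamini-Hochberg adjusted across 14074 tested genes (threshold 0.05). SE is the size of the log2 fold change divided by the root of F. CPM are TMM-scaled. The code was tested on simulated data. Log2 ratios of gene pairs were compared by an exact permutation test. The genes described, the 7 pathway lists and the 6 marker lists were chosen with earlier results of these data known. From each pathway list the text names the 2 largest called increases and decreases, and from each marker list the gene with the highest mean CPM. Gss, Cul3, Mafg, Mafk, Atf4, Gpx1, Gstm1, Prdx5, Txn2, Txnrd2, Prdx3, Prdx2 and Cd209a were named after their values were seen. Same-numbered libraries of the 2 groups did not deviate together (r of -0.01 to 0.03). The 19 alternatives were other scalings, filters and tests (limma 3.58.1, DESeq2 1.42.0), FPKM, the replicate block and leaving out each library. Promoter sequences are from RefSeq.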

Additional observations from a re-analysis of the deposited data

Results flagged for a closer look

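Dixon's test at 95% set 1 library apart from its group in 3 cases, where chance gives about 5.9 among the 118 gene and group combinations examined. Control replicate 3 was low for Nfe2l2, with 345 CPM where the remaining Control libraries had 354 to 355 CPM. LMF replicate 1 was low for Abcc1, with 338 CPM where the remaining LMF libraries had 368 to 372 CPM. The same library was high for Ngp, a neutrophil granule protein, with 641 CPM where the remaining LMF libraries had 577 to 585 CPM.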

How the results depend on the processing

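All 10 genes kept their direction under the 19 alternatives and were called higher in 18 of them. The test against a 1.5-fold change called 6 of the 10, 363 of all genes (240 higher and 123 lower) and 12 of the related and marker genes. Over the fits without 1 library the count of all called genes was 4307 to 5047, and with the replicate block it was 4774 against 4845 without it; the numbers do not pair the libraries, and all 10 genes were called with the block. With listed gene lengths in place of those behind FPKM, the highest of the 10 genes in LMF was 20.2 times the lowest, a lower ratio than with FPKM. The 6 pair differences kept their sign and call on FPKM and kept their sign without any 1 library, for which no p was computed. Values near 0 changed sign: over the fits without 1 library the gene Keap1 ranged from -0.0667 to 0.0519 (0.0139 without LMF replicate 1, 0.0489 without LMF replicate 4 and 0.0519 without Control replicate 4) and was 0.00866 with limma-voom, and the gene Cd8a, the most abundant T and NK marker, ranged from -0.108 (without LMF replicate 1) to 0.162 and was -0.00576 with limma-voom, none of them called; the cause was not tested.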

Other observations

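For Txn1, Prdx1 and Txnrd1 a mitochondrial counterpart was looked at after the values were seen, and none of these counterparts was called higher. This does not extend to the system as a whole. Cytosolic Prdx2 was called lower (-0.17 ± 0.04 SE, adjusted p = 0.00176, edgeR). Junb and Rnaseh2a overlap Prdx2 on the opposite strand with 218% and 23.6% as many counts, so that its value is uncertain if counting ignored strand. Prdx5, found in mitochondria and elsewhere in the cell, was called higher (0.24 ± 0.05). On its opposite strand Trmt112 overlaps Prdx5 with 4.12% as many counts. Txn2, mitochondrial thioredoxin, was at 98.0 ± 6.65 CPM in LMF and 104 ± 2.83 CPM in Control (SD, n = 4 each, log2 fold change -0.08 ± 0.05 SE, adjusted p = 0.179, edgeR), beside 0.19 ± 0.04 for Txn1. Prdx3, a mitochondrial peroxiredoxin, was at 69.5 ± 2.55 CPM in LMF and 72.1 ± 1.51 CPM in Control (-0.05 ± 0.05, adjusted p = 0.469, edgeR), beside 0.72 ± 0.04 for Prdx1. Txnrd2, mitochondrial thioredoxin reductase, was at 14.9 ± 1.25 CPM in LMF and 18.1 ± 1.17 CPM in Control. It was called lower (-0.28 ± 0.09, adjusted p = 0.0187, edgeR), beside 1.10 ± 0.04 for Txnrd1. Genes that overlap Txnrd2 were not examined. The differences within these pairs were not tested, since the pairs were chosen for them.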
